A study of Mus musculus with 7 samples.

Results

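Klf1 encodes EKLF, the erythroid Krüppel-like factor, and belongs to the family of Krüppel-like (Klf) and Sp transcription factors. The genes described here are those of the deposited exon table with a mouse symbol of Klf and a number, or Sp1, Sp2, Sp3 or Sp4. Of 21 protein-coding genes with such symbols in the RefSeq annotation, 10 were listed, with 25 coding exons, among 5194 genes in all. They are Klf1, Klf3, Klf6, Klf11, Klf13, Klf16, Sp1, Sp2, Sp3 and Sp4. Every listed exon reached 0.8 in both stages, and the other 11 genes were not analysed here, among them Klf2, Klf8, Klf9 and Klf10.

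Cells came from fetal livers of mice at stage E13.5 and were sorted by the red cell antigen Ter119 and the transferrin receptor CD71. Erythroblasts were Ter119+CD71+, and progenitors joined Ter119-CD71- and Ter119-CD71+ cells. All samples of both stages, inputs included, carried Klf1 with a hemagglutinin (HA) tag, and an antibody against HA pulled down EKLF for chromatin immunoprecipitation sequencing (ChIP-seq). No untagged sample is among those used here. At least 3 independent sorts were made per population, and the peak lists are pooled by stage. The 7 samples were 2 RNA libraries of erythroblasts and 1 of progenitors, 1 ChIP library of each stage and 1 input library of each stage.

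Klf and Sp proteins share C-terminal zinc fingers that bind GC-rich and CACCC sequences. EKLF activates globin, heme and membrane genes in red cells and is needed for their maturation. In erythroid cells EKLF also activates Klf3, whose product recruits the corepressor CtBP and represses many genes that EKLF activates. The Klf1 gene is driven by GATA1. On autoregulation, the peak lists address only whether EKLF sits at its own gene. Whether EKLF bound there changes Klf1 RNA was not tested.

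The deposited files gave 1 RNA column and 1 pooled peak list per stage, so no value below has a replicate SD or n and no difference was tested over samples. RNA values are the authors' exon coverage signal, which can be compared for the same exon between stages but not between genes. Gene differences are log2 of (erythroblasts + 1) over (progenitors + 1), after the listed exons were summed, and a gene counts as risen or fallen at 2-fold or more on that scale. By this rule 15.3% of 5194 genes rose and 13.2% fell, with a median of 0.03. In bulk RNA, a change in the share of cells and a change in RNA per cell cannot be told apart. Of the erythroid markers, 5 items were listed and 4 rose, the alpha- and beta-globin items, Gata1 and Tfrc, which encodes the CD71 antigen used in the sort, while the erythropoietin receptor gene Epor had 70.5 in erythroblasts and 58.2 in progenitors. No early progenitor, hepatocyte, macrophage, granulocyte and mast cell, endothelial and stromal or lymphoid marker was listed, so the labels of both stages could be checked against the erythroid markers and 1 megakaryocyte gene, Gp1ba (31.6 in erythroblasts and 9.35 in progenitors).

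Klf1 RNA summed to 145 in erythroblasts and 73.9 in progenitors, a ratio of 1.96 and a log2 difference of 0.96 that stayed just under the rule. Its 3 listed coding exons were all higher in erythroblasts, but by very different amounts. The first exon, starting at position 87425874 of chromosome 8 (build mm9, forward strand), had 23.0 in erythroblasts and 2.71 in progenitors, 8.49-fold higher. The second, starting at 87426588, had 73.2 in erythroblasts and 51.3 in progenitors, 1.43-fold higher. The third, starting at 87428663, had 48.7 in erythroblasts and 19.8 in progenitors, 2.46-fold higher. The first exon thus made up 15.9% of the Klf1 signal in erythroblasts and 3.67% in progenitors, and the second 50.5% in erythroblasts and 69.5% in progenitors. Without the second exon the log2 difference was 1.63 and passed the rule, as did the median of the exon log2 ratios, 1.30.

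The spread among the Klf1 exons was wide for a gene with 3 listed exons. The exon log2 ratios spanned 2.58, and of the 628 genes with exactly 3 listed exons 11, Klf1 included, spanned as much (1.75%), with a median span of 1.01. Of the 2746 genes with at least 3 listed exons 444 did (16.2%). The upper end of the Klf1 span is the first exon, whose 2.71 in progenitors was not far above the lowest listed value of 0.8. Among 513 forward-strand genes with a listed first coding exon and others, the first exon's log2 ratio was a median of 0.13 below that of the other exons (difference -0.13). In Klf1 it was 2.18 above, and 4 of these genes, Klf1 included, had a difference that large (0.780%). These are descriptions of 1 column per stage, and exons of a gene are not replicates.

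**Figure D1:**
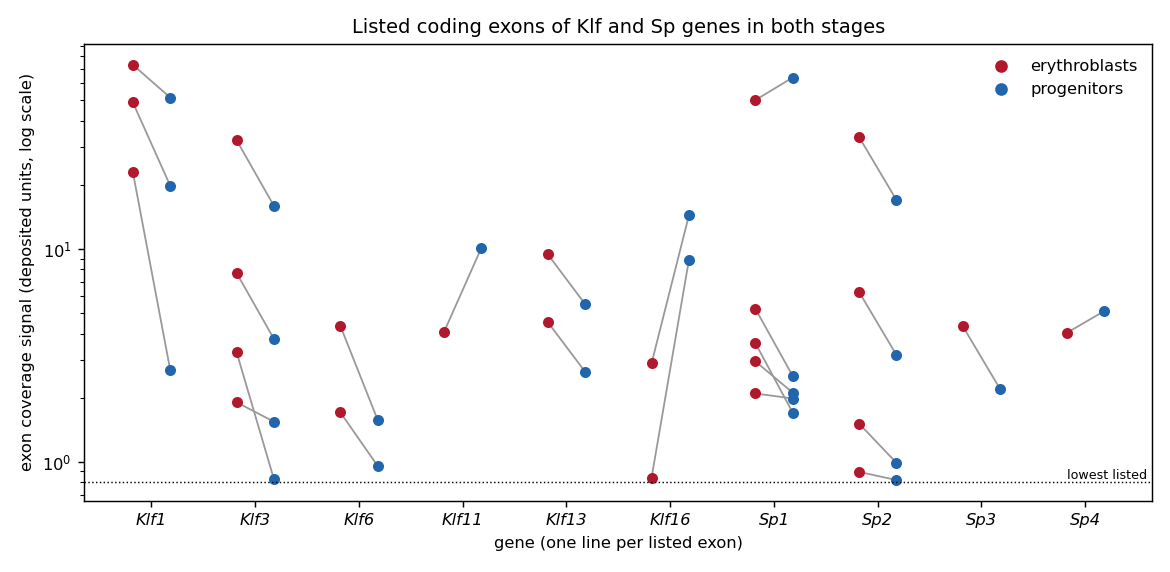
Exon coverage signal (vertical axis, log scale, deposited units) of the 25 listed coding exons of 10 Klf and Sp genes, with erythroblasts left of progenitors and a line joining the values of each exon. The first Klf1 exon has the steepest line among the exons that were higher in erythroblasts (23.0 in erythroblasts and 2.71 in progenitors), and both Klf16 exons were lower in erythroblasts.

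At the Klf1 gene, an EKLF peak of the erythroblast list lay over the gene itself, and no progenitor peak overlapped it. It ran from 87425111 to 87427800 on chromosome 8, from 763 bases before the start of the first listed coding exon to 1212 bases past the start of the second, and ended 863 bases before the third. Its enrichment of 22.7 exceeded 97.5% of the erythroblast list, where it stood at rank 616 of 19353 by -log10 p. Enrichment is the authors' own score of a peak and has meaning inside its list. The progenitor list was shorter, with 7358 peaks against 19353 in erythroblasts. Absence of a peak from it therefore does not show that EKLF was absent in progenitors. Of all genes 24.9% had an erythroblast peak overlapping the span of their listed exons, and 15.8% a progenitor peak.

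The promoter of Klf1 is shown because that peak covers the first coding exon of the gene. The 250 bases before the annotated start site, chr8:84901732-84901981 of GRCm38.p6 (forward strand, RefSeq), are printed 5′ to 3′ with capitals on every match, on both strands, to CACCC (the box that Klf factors bind), GATAAG (bound by GATA factors) and CCAAT.
Klf1: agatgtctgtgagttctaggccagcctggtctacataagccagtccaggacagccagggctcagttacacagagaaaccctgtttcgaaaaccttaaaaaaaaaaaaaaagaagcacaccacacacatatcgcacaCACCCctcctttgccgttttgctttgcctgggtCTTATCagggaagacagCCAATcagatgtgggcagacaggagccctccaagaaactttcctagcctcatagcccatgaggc
The window held 1 match to each. The CACCC match lay 114 to 110 bases before the start site, the GATAAG match, on the reverse strand, 81 to 76 bases before it, and the CCAAT match 64 to 60 bases before it. None of these overlapped another. CACCC was found in 52.0% of 32851 such windows of all annotated start sites, GATAAG in 6.55% and CCAAT in 33.8%. The longer pattern CCNCNCCC, near the preferred site of EKLF, was in 45.9% of windows and had no match in the Klf1 window, and the GC box GGGCGG, in 32.7% of windows, had none either. The windows come from another build than the peaks, and their positions were not carried over.

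The other peaks near Klf1 lay at its neighbours. Within 50 kb of the listed Klf1 exons the erythroblast list held 4 peaks and the progenitor list 1. The progenitor peak, from 87431782 to 87433388, had an enrichment of 4.96, above 11.5% of its list, and overlapped an erythroblast peak from 87431681 to 87433353 with an enrichment of 9.08. The erythroblast peak began 3.018 kb and the progenitor peak 3.119 kb past the last listed Klf1 exon start, and both covered a listed exon start of Dnase2a at 87432884. Dnase2a encodes the lysosomal nuclease DNase II and had 87.4 in erythroblasts and 49.9 in progenitors, a log2 difference of 0.80. The erythroblast peak from 87395473 to 87397146, with an enrichment of 9.73, covered a listed exon start of Syce2, a synaptonemal complex gene, which fell to 13.8 in erythroblasts, against 35.7 in progenitors (-1.31). The erythroblast peak from 87380130 to 87381669, with an enrichment of 17.4, lay 44.2 kb before Klf1 and 3136 bases from Farsa, a phenylalanine tRNA synthetase subunit gene, with 82.3 in erythroblasts and 163 in progenitors (-0.98). Gcdh, the glutaryl-CoA dehydrogenase gene listed between Syce2 and Klf1, had 7.22 in erythroblasts and 3.17 in progenitors (0.98) and no peak within 5 kb in either list. Of the 5 peaks, the erythroblast peak over Klf1 was therefore the only one for which Klf1 was the nearest listed gene. Of all genes 16.8% had at least 4 erythroblast peaks and 70.1% at least 1 progenitor peak within 50 kb.

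**Figure D2:**
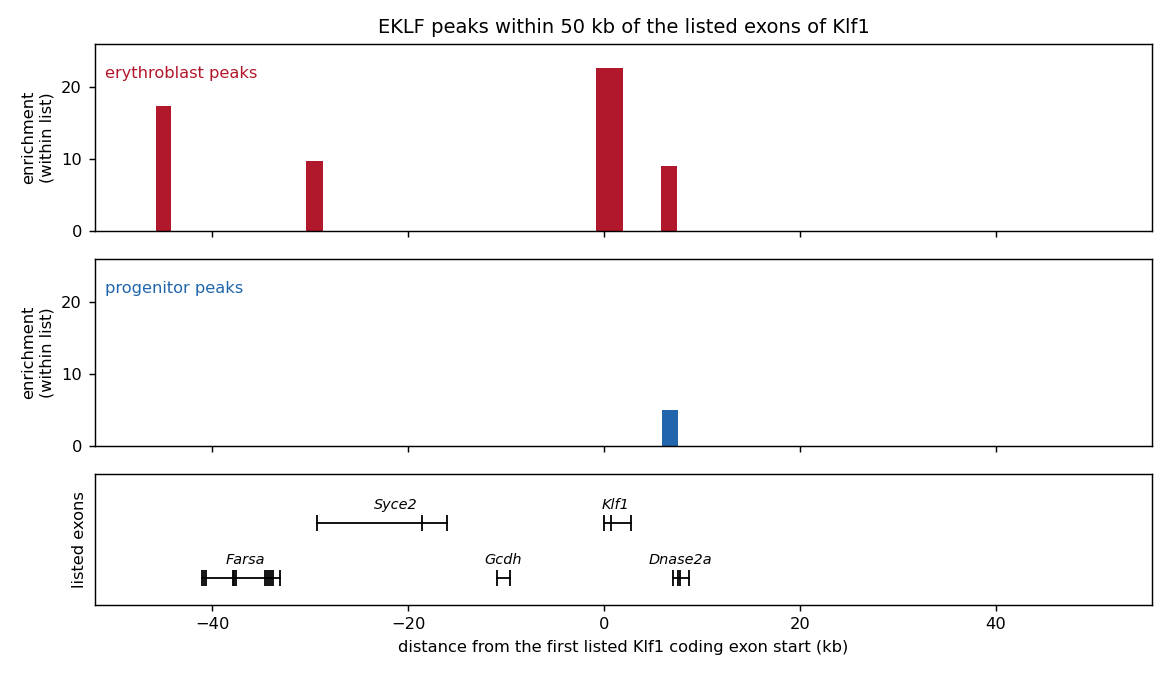
EKLF peaks within 50 kb of the listed Klf1 exons, erythroblast list above progenitor list, with bar width to scale and height as the authors' enrichment within each list, over ticks at listed exon starts of Klf1 and its neighbours. The horizontal axis is the distance from the first listed Klf1 coding exon start (kb); the highest bar, 22.7, covers Klf1 in erythroblasts, and the progenitor bar, 4.96, lies at Dnase2a.

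Among the other members, 1 rose (15.3% of all genes) and 2 fell (13.2%) by the rule, and several lay close to it. Klf3, Klf1, Klf6, Sp2, Sp3 and Klf13 were higher in erythroblasts, with ratios of the summed signal from 1.71 (Klf13) to 2.39 (Klf6). Sp1 and Sp4 were near the middle of all genes, and Klf11 and Klf16 were lower in erythroblasts. The median log2 difference of the 10 members was 0.72, beside 0.03 over all genes, and 6 of 10 were above 0, beside 51.2% of all genes. Of their 25 listed exons 20 were higher in erythroblasts, beside 53.4% of all exons, 8 at least 2-fold (21.7% of all exons), and 3 were at least 2-fold lower (16.2%).

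Klf3, the repressor that EKLF activates, rose to 45.3 in erythroblasts, against 22.1 in progenitors, a log2 difference of 1.01. All 4 listed exons were higher in erythroblasts, from 1.23-fold to 3.95-fold. The exon that carried most of the signal, starting at 65213113 on chromosome 5, had 32.4 in erythroblasts and 15.9 in progenitors. With median-ratio scaling the gene's difference was 0.98 and with globin genes removed 0.94, both under the rule. The listed Klf3 exons began with the third coding exon of the transcript, so its 5' end was not located. Both erythroblast peaks near Klf3 lay before its listed exons, at 17.3 and 9.065 kb. The first, from 65193555 to 65195848, reached 31.6, above 99.4% of the enrichments of its list, and was at rank 97 by -log10 p. A progenitor peak from 65193546 to 65195755 overlapped it, with an enrichment of 4.93, above 11.0% of the progenitor list. The second, from 65201595 to 65204048, with an enrichment of 15.7, was in the erythroblast list alone.

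Klf6, a broadly expressed factor that is induced by injury and growth signals, had 6.06 in erythroblasts and 2.53 in progenitors, a log2 difference of 0.9996 that missed the rule by the pseudocount alone, since the plain ratio was 2.39. Its first listed exon had 1.71 in erythroblasts and 0.955 in progenitors and its second 4.35 in erythroblasts and 1.57 in progenitors, both close to the lowest listed values. An erythroblast peak from 5859788 to 5861218 on chromosome 13 covered the first listed exon start, with an enrichment of 21.95, above 96.9% of the list. No progenitor peak lay within 50 kb of Klf6, the only member without one. Klf1 and Klf6 were the members with an erythroblast peak over the first coding exon that the progenitor list lacked.

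Klf16 and Klf11 belong to a subgroup of Klf repressors that bind the corepressor SIN3A, and both fell. Klf16 fell to 3.74 in erythroblasts, against 23.2 in progenitors, a log2 difference of -2.35, lower than in 98.8% of genes. Its exon starting at 80031666 on chromosome 10 had 2.90 in erythroblasts and 14.3 in progenitors, and that starting at 80039492, the more 5' on the reverse strand, 0.841 in erythroblasts and 8.85 in progenitors. Klf11 fell to 4.07 in erythroblasts, against 10.1 in progenitors (-1.13), on 1 listed exon, and the difference was -0.51 with a pseudocount of 10. Both genes had a peak of both lists over or before their most 5' listed exon. At Klf16 the erythroblast peak from 80038682 to 80042346 (enrichment 19.0) and the progenitor peak from 80038528 to 80041555 (5.22) covered the more 5' exon start. At Klf11 the erythroblast peak from 25335632 to 25337516 on chromosome 12 (33.9, above 99.5% of the list) and the progenitor peak from 25335595 to 25337560 (10.9, above 87.7%) lay 2.192 kb (erythroblasts) and 2.148 kb (progenitors) before the listed exon. Klf13, also of this subgroup, had 13.9 in erythroblasts and 8.14 in progenitors (0.71), with both exons 1.71-fold higher. Peaks of both lists covered its more 5' exon, with an enrichment of 7.57 in erythroblasts and 6.16 in progenitors.

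Sp1, the widely expressed activator of GC-box promoters, gave opposite answers by exon. It had 63.8 in erythroblasts and 72.0 in progenitors, a log2 difference of -0.17. The exon starting at 102238647 on chromosome 15, which carried most of the signal, had 49.9 in erythroblasts and 63.7 in progenitors. The other 4 exons were higher in erythroblasts, by 1.06-fold to 2.12-fold, so the median of the exon log2 ratios was 0.49, above 0. Sp2, a relative that shares many promoters with the CCAAT-binding factor NF-Y, had 42.2 in erythroblasts and 21.9 in progenitors (0.91), with its 4 exons between 1.09-fold and 1.98-fold higher. Sp3, which binds the same GC boxes as Sp1, had 4.33 in erythroblasts and 2.19 in progenitors (0.74), and Sp4, best known in neurons, 4.02 in erythroblasts and 5.09 in progenitors (-0.28), each on 1 listed exon.

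The 4 Sp genes had peaks of both lists before their listed exons. The Sp1 peaks, from 102234945 to 102237974 in erythroblasts and from 102234982 to 102237585 in progenitors, ended 229 bases (erythroblasts) and 618 bases (progenitors) before its first listed exon start, with enrichments of 24.8 in erythroblasts and 8.77 in progenitors. The Sp4 peaks lay 2.005 kb (erythroblasts) and 1.991 kb (progenitors) before its listed exon, with enrichments of 29.8 in erythroblasts and 14.8 in progenitors. The Sp3 peaks lay 7.731 kb (erythroblasts) and 8.07 kb (progenitors) before its listed exon, with enrichments of 20.7 in erythroblasts and 8.35 in progenitors. The Sp2 peaks lay 13452 bases (erythroblasts) and 13301 bases (progenitors) before its listed exons, with enrichments of 14.9 in erythroblasts and 11.5 in progenitors. Some of the strongest peaks within 50 kb lay closer to other genes. The strongest progenitor peak near Sp2, 12.5, overlapped the span of the listed exon starts of Cdk5rap3. The strongest progenitor peak near Sp1, 13.2, lay 1433 bases from Pcbp2, and the strongest peaks near Klf16, 28.8 in erythroblasts and 9.66 in progenitors, were nearest to Scamp4.

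**Figure D3:**
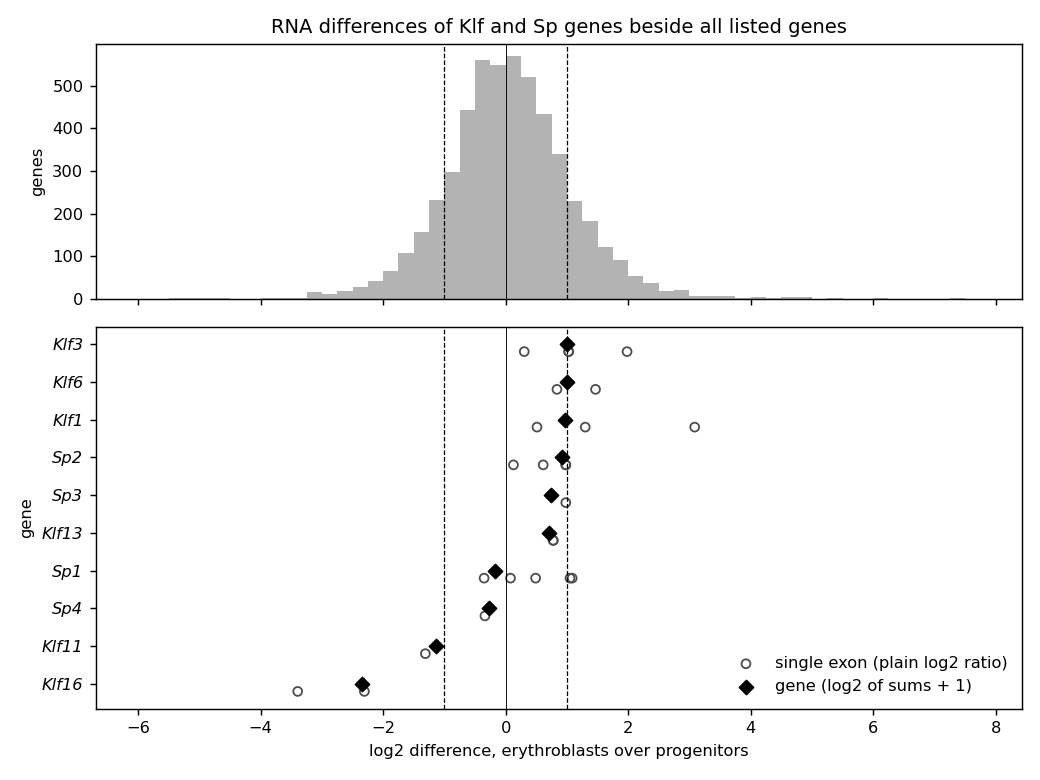
Upper panel, the number of genes (vertical axis) by log2 difference, erythroblasts over progenitors, for all 5194 listed genes. Lower panel, the same axis for the 10 Klf and Sp genes, with diamonds for genes and circles for single exons; dashed lines mark 2-fold, and 6 diamonds lie between 0.71 and 1.01.

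All 10 had an erythroblast peak within 50 kb of their listed exons, beside 88.1% of all genes, and 9 had a progenitor peak, beside 70.1%. Those with a peak of both lists numbered 9, beside 67.6% of genes. Within 5 kb 7 members had an erythroblast peak (46.5% of all genes), 6 a progenitor peak (30.9%) and 6 both (27.1%). Klf6 was the member with an erythroblast peak and no progenitor peak at that distance (19.4% of genes), and Klf3, Sp2 and Sp3 had neither (49.7%). Within 10 kb all 10 had an erythroblast peak, beside 58.2% of genes, and 7 a progenitor peak, beside 40% of genes. At 5, 10 and 50 kb Klf1 counts as having a progenitor peak only through the one at Dnase2a, with an enrichment of 4.96. Each of the 10 had within 50 kb a peak among the 3000 highest-ranked of the erythroblast list, beside 33.2% of genes, with best ranks from 97 (Klf3) to 2925 (Sp2). For the progenitor list 7 of 10 did, beside 42.8% of genes. The nearest erythroblast peak covered the most 5' listed exon start in 4 members and lay before that exon in 5, together 9 of 10, beside 75.8% of all genes with a peak in this window. Sp2, whose nearest peak lay past its listed exons, was the exception. Where the first coding exon was not listed, as in Klf3, Klf11 and Sp1, a peak before the listed exons may lie inside the gene. Of the 9 members with a progenitor peak 8 had the nearest one there, beside 72.2% of genes. These are counts over 10 genes, and their difference from other genes was not tested.

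All 12 progenitor peaks within 50 kb of a member overlapped an erythroblast peak, beside 80.9% of the whole progenitor list. Of the 25 erythroblast peaks near members 12 (48.0%) overlapped a progenitor peak, beside 30.9% of the whole erythroblast list. The lists differ in length, 19353 peaks in erythroblasts and 7358 in progenitors, and the shared counts depend on that. The other 13 were in the erythroblast list alone, and of these the peaks over Klf1 (22.7) and Klf6 (21.95) and that 41.6 kb before Sp3 (21.95, from 72849796 to 72851350 on chromosome 2) had the highest enrichments. The median enrichment was 15.7 over the 25 erythroblast peaks, beside 9.31 over that list, and 9.21 over the 12 progenitor peaks, beside 7.03 over that list.

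**Figure D4:**
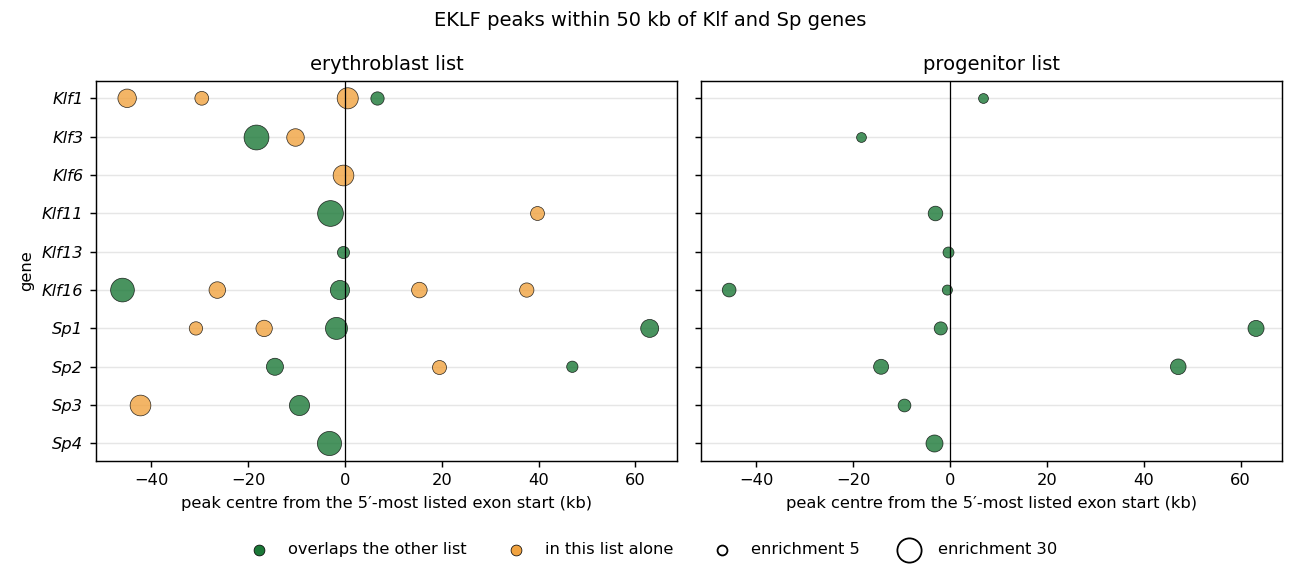
EKLF peaks within 50 kb of the listed exons of each of the 10 Klf and Sp genes, erythroblast list left and progenitor list right, by the distance (kb) of the peak centre from the most 5' listed exon start, in the direction of transcription. Circle area follows the authors' enrichment within each list, and colour marks overlap with the other list; all 12 progenitor peaks overlap an erythroblast peak.

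Promoters of 3 other members are shown for their RNA or peaks. They are Klf3 with the highest-ranked erythroblast peak, Klf6 with an erythroblast peak alone and Klf11 among those that fell. Klf16 fell further than Klf11 but was not among the RefSeq windows. Windows are the 250 bases before the annotated start site, forward strand, in GRCm38.p6 (RefSeq), at chr5:64803271-64803520, chr13:5861239-5861488 and chr12:24651121-24651370. Capitals mark matches to CCNCNCCC on either strand, which may overlap.
Klf3: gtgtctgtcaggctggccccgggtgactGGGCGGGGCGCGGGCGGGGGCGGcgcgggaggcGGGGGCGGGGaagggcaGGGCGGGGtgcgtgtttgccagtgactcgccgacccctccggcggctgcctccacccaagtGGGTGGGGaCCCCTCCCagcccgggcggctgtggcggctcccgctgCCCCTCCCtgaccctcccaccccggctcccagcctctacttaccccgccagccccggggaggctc
Klf6: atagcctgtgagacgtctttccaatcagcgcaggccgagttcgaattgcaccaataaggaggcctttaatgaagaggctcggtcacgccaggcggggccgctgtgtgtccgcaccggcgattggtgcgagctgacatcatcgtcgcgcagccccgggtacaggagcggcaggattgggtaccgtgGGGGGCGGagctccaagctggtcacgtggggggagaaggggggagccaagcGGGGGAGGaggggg
Klf11: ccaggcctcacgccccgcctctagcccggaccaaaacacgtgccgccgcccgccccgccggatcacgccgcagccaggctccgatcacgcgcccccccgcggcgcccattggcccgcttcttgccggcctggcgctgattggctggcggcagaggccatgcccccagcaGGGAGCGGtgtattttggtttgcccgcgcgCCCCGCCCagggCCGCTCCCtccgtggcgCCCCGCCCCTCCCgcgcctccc
The Klf3 window held 10 matches, the Klf6 window 2 and the Klf11 window 5, against 0 in the Klf1 window above. Their GC content was 78.4% in Klf3, 64.8% in Klf6 and 76.8% in Klf11, beside 49.2% in Klf1 and a median of 52.4% over all windows. Of the 9 members found among the RefSeq windows, 8 had a match in at least 1 of their start sites, all but Klf1, and the same 8 held the GC box GGGCGG, whose matches can overlap those to CCNCNCCC. Over all windows 45.9% held CCNCNCCC and 32.7% held GGGCGG. These shares are per window, and members with several start sites had more than 1 window, so the counts of members cannot be set directly against them.

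Of 17 genes of EKLF cofactors 14 were listed, 1 rose (15.3% of all genes) and 2 fell (13.2%), with a median of -0.19. Smarce1, a subunit of the SWI/SNF remodeling complex, rose to 35.2 in erythroblasts, against 12.1 in progenitors, on 1 exon. Sin3a fell to 32.3 in erythroblasts, against 78.1 in progenitors (-1.25), with an exon median of -0.74 that misses the rule, and Hira, a histone chaperone, fell to 11.2 in erythroblasts, against 39.6 in progenitors (-1.73). Chd4, the best covered, had 235 in erythroblasts and 416 in progenitors. Of 9 partner genes of other Klf and Sp factors 7 were listed, 1 rose (15.3% of all genes) and none fell (13.2%), with a median of -0.08. The gene that rose was Fbxw7, a ubiquitin ligase subunit, with 7.40 in erythroblasts and 0.874 in progenitors on 1 exon. Its progenitor value was close to the lowest listed value of 0.8. Ctbp1, which encodes the corepressor of KLF3, had 96.0 in erythroblasts and 116 in progenitors, and Ncor1, the best covered, 187 in erythroblasts and 198 in progenitors.

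Regulators upstream of Klf1 moved in both directions. Of 12 genes 6 were listed, 2 rose (15.3% of all genes) and 1 fell (13.2%), with a median of 0.51. Gata1 rose to 2845 in erythroblasts, against 42.1 in progenitors (6.05), and had no peak within 5 kb in either list. Lmo2, the bridging protein of the GATA1 and TAL1 complex, rose to 65.5 in erythroblasts, against 22.0 in progenitors (1.53). Tcf3, whose E proteins pair with TAL1 in that complex, fell to 60.1 in erythroblasts, against 461 in progenitors (-2.92), with an SD of 0.64 over its 17 exons, which is no replicate error, and had 4 erythroblast peaks and 1 progenitor peak within 5 kb. Tal1 had 44.9 in erythroblasts and 43.2 in progenitors. Of 9 regulators reported downstream of EKLF 8 were listed, 3 rose (15.3% of all genes) and none fell (13.2%), with a median of 0.31. The genes of the cell cycle inhibitors Cdkn1b (34.4 in erythroblasts and 3.99 in progenitors, on 1 exon) and Cdkn2c (17.0 in erythroblasts and 4.51 in progenitors) rose, as did Foxo3 (157 in erythroblasts and 65.2 in progenitors). The globin repressor genes Bcl11a (19.0 in erythroblasts and 27.0 in progenitors) and Zbtb7a (21.2 in erythroblasts and 16.8 in progenitors) did neither, nor did the best covered, the erythroid factor gene Nfe2 (202 in erythroblasts and 177 in progenitors). Of these 8 genes 7 had an erythroblast peak within 5 kb (46.5% of all genes) and 6 a progenitor peak (30.9%), and Bcl11a had none.

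The genes closest to Klf1 in their difference were Zfpm1 (0.97), Aimp2 (0.97), Tcf25 (0.96), Kcnn4 (0.96) and Daam1 (0.97), chosen as the 5 nearest among 1439 genes with at least 3 listed exons and at least 20 in both stages. With 2 columns this likeness is a single ratio, and 51 genes lay within 0.1 of Klf1. All 5 had an erythroblast peak over their listed span (24.9% of all genes) and 1 a progenitor peak (15.8%), and Zfpm1, which encodes the GATA1 cofactor FOG1, had 6 there and 2 progenitor peaks. The shares over all genes include genes with 1 listed exon, whose span is a single position. They are therefore not a like background for these 5, which had longer spans.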

How the data were processed

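RNA, ChIP and input libraries of sorted fetal liver cells were made by the authors, and build mm9 is named in the submitters' processing notes. Aligner, counter and peak caller: not given in the sources used here. In unit, the deposited table, named RPKM, holds 1 coverage signal per coding exon and stage. In each column all values checked fell on multiples of a single step, to within 0.05 of that step, for exons of any length, so the authors' values are read as coverage, not RPKM. No source used here says whether both erythroblast libraries were pooled in their column. Depth is unknown. The deposited peak lists hold a fold enrichment over background (column 7) and a -log10 p (column 8), as read from their values, since the deposited lists have no header. Peaks were ranked by -log10 p, then enrichment.

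Exon rows were matched to symbols by RefSeq accession (GRCm38.p6 table, names only; 6772 of 6853 transcripts). For each gene the transcript with the most listed exons was kept and its exons were summed. Genes with under 1 in both columns were left out. A pseudocount of 1 was used. Peaks overlapping by at least 1 bp were called shared, and a peak was near a gene where it lay within 50 kb of the span of its listed exon starts. No test over samples was possible with 1 column and 1 list per stage. All listed Klf and Sp genes are named, with the peak nearest to them and their strongest peak, except the erythroblast peak nearest to Sp2, which is not reported here. Of the companion lists, the members past 2-fold and the best covered are named. Best covered means the highest summed signal and is no comparison of RNA levels between genes. Epor, Ctbp1, Tal1, Bcl11a and Zbtb7a were added after their values were seen. The members and lists were chosen with earlier results of these data known. Steps were tested on simulated data. Input libraries were not analysed here. Python 3.11.15, pandas 2.3.3, numpy 2.4.6 and matplotlib 3.10.9 were used.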

Additional observations from a re-analysis of the deposited data

How the results depend on the processing

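Directions of the 10 Klf and Sp genes held under every pseudocount, scaling, filter and gene summary tried that kept them (Sp3 was left out by a minimum of 5), except Sp1, whose difference of -0.17 was 0.49 as the median of its exon log2 ratios. No scaling moved the median of all genes by 0.1. Klf1 passed the 2-fold rule by exon median (1.30) and without its second exon (1.63), and stayed under it in all other settings. Members that rose (1) numbered 2 with a pseudocount of 0.1, 3 by exon median, and 0 with a pseudocount of 10, median-ratio scaling or globin genes removed; 1 member fell in place of 2 with a pseudocount of 10. That pseudocount also gave 354 genes higher and 278 lower over the whole table, in place of 794 and 684. The number of all genes that rose moved in the other settings too. It was 941 with a pseudocount of 0.1, 996 by exon median, 762 with median-ratio scaling and 733 with globin genes removed. Higher genes made up 53.7% of all calls and between 49.3% and 56.8% under the alternatives.

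Near Klf1 the erythroblast list had 4 peaks within 50 kb, 2 within 5 or 10 kb, 15 within 100 kb, 2 above its median rank and 1 among its 3000 highest-ranked. The progenitor list had 1, 7 within 100 kb, and 0 above its median rank or among its 3000 highest-ranked. Within 5 kb of members 6 erythroblast peaks were shared and 2 were not, beside 30.9% shared over the whole list. All 6 progenitor peaks at that distance were shared, beside 80.9% of the whole list. With peaks above the median rank of each list 1 of 11 progenitor peaks was not shared, against 0 with all peaks. Of all progenitor peaks above that rank 71.2% were shared. No paired analysis was possible because each stage has 1 RNA column and 1 peak list, and no replicate could be left out for the same reason.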
